A study of Mus musculus with 4 samples.

Results

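The genes examined were 10 that cells switch on quickly after stimulation, other than the Fos and Jun genes: Egr1, Egr2, Egr3, Egr4, Nr4a1, Nr4a2, Nr4a3, Arc, Npas4 and Ier2. They were chosen by symbol, and all 10 were found among the 23874 genes of the count table and were among the 14263 genes that had enough counts to be tested. RNA was sequenced from engineered mouse neural tissue, which is a culture of neural stem cell spheres set in Matrigel, an extract of basement membrane, under N2 and B27 medium with 20 ng/ml human basic fibroblast growth factor. The EF group was placed in a field of 150 mV/mm for 30 min on each of 3 days and then cultured without it for 7 days, and the noEF group was not stimulated. The sources used here give no strain, genotype or age of the source animals, and both groups shared the gel, the medium and the growth factor. Each group had 2 libraries, whereas the labels speak of 3 replicates. The EF library titled replicate 2, called EF 2 below, carries the library name E3, and none is named E2. These names do not say whether an EF library was left out. Nothing says that the replicates were separate cultures, so the p-values measure the spread between these libraries, which may be technical. The series design calls its controls stem cell suspensions, while the labels of the noEF libraries name the engineered tissue. Total counts lay between 33748880 and 34554537 per library.

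The 10 genes belong to the immediate early response, the first wave of transcription after a stimulus, which needs no new protein because its activators are already present. Calcium entry and growth factor receptors act through ERK, CaM kinase and calcineurin on the factors SRF, CREB and MEF2, which bind the promoters of these genes, and the transcripts are short-lived, so that the RNA usually returns to its resting level within hours. The Egr proteins are zinc finger activators, the Nr4a proteins are orphan nuclear receptors, Npas4 is an activator found mainly in neurons and tied to calcium entry, Arc removes AMPA receptors from synapses, and Ier2 is a small nuclear protein whose function is less well known. In neural progenitors and glia many of them also answer to growth factors.

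The stretch before the start site, where these signals converge, is shown for Nr4a2, whose level differed between the groups, for Nr4a1, its most abundant relative, and for Egr2 and Egr4 from the other family. RefSeq windows (GRCm38.p6) were examined for 6 of the 10 genes. Those of Egr1, Egr3, Arc and Ier2 were not examined, so nothing is said here about their sites. Each window printed here holds the 250 bases before an annotated start (for Egr2, 1 of 5), 5′ to 3′ on the strand of the gene, and meets no GENCODE exon of its gene. Capitals mark the core of the CREB response element, TGACG on either strand, and the CArG box, the site of SRF.
Nr4a2, chr2:57124004-57124253, minus strand: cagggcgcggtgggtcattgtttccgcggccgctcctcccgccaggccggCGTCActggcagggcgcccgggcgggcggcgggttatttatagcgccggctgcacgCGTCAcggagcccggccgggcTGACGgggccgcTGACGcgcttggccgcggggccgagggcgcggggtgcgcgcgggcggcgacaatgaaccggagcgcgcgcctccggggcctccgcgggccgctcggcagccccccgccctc
Nr4a1, chr15:101266596-101266845, plus strand: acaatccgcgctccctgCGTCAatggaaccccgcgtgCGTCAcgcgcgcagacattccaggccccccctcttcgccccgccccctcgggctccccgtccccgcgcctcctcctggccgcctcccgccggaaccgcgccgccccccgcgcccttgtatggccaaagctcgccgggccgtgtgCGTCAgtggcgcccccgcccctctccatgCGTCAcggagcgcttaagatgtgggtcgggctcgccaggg
Egr2, chr10:67537619-67537868, plus strand: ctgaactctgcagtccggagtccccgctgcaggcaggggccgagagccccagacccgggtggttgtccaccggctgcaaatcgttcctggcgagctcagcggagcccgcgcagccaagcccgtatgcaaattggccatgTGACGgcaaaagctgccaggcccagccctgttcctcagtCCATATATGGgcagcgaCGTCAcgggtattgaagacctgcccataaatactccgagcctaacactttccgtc
Egr4, chr6:85513590-85513839, minus strand: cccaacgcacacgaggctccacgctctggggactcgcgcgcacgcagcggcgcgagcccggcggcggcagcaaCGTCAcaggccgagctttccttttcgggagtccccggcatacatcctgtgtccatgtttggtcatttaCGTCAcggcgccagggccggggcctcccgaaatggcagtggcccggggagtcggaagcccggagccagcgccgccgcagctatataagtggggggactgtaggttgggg

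The core site TGACG occurred 4 times in the Nr4a2 window, with its far ends 200, 144, 123 and 111 bases before the start. The Nr4a1 window, which lies between exons of longer Nr4a1 transcripts, also held 4, at 233, 213, 69 and 40 bases, and so did that of Nr4a3. Egr4 and Npas4 had 2 each, and Egr2 had 2 in 3 of the windows of its 5 annotated starts. All 6 genes therefore held at least 1 core site in a window, and 17.8% of the 32851 windows of this length in the table held it. Here and below the units differ, because the share is per window and Egr2 was counted over 5 windows. Exons of the same gene cover 250 bases of the Npas4 window and 152 of the Nr4a3 window. The windows of the 6 genes are rich in G and C, at 80.0% for Nr4a2 and 74.4% for Nr4a1, and the core site itself contains CG. No window of the 6 genes held the full element TGACGTCA, which 1.55% of all windows hold and which contains the core site on both strands. A CArG box stood 72 to 63 bases before the Egr2 start printed above, between its core sites, and Egr2 was the only one of the 6 genes with this box in a window, against 1.47% of all windows. The Egr site GCGGGGGCG was found once, in the Nr4a1 window, 60 to 52 bases before the start, and 2.57% of all windows hold it. The related Egr site GCGTGGGCG, the Nr4a site AAAGGTCA and the AP-1 site TGANTCA had no match in the 6 genes, and 0.536%, 1.34% and 6.75% of all windows hold them. TATAAA was matched once, on the opposite strand of the Nr4a2 window, 164 to 159 bases before the start, against 12.4% of all windows. The similar letters TATATAAG, in the Egr4 and Npas4 windows, do not count as a match. All matches given are letter matches on both strands and not measured binding.

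Between the groups the 10 genes differed little. Levels are given as CPM, counts scaled to TMM-adjusted library size. Called means an adjusted p under 0.05 in edgeR's quasi-likelihood test, corrected over all genes tested. Nr4a2 was lower in EF and was the 1 gene of the 10 that was called, and 0 were called higher. Over all tested genes 8.82% were called, 3.83% higher and 4.99% lower, so a count of 1 in 10 is near this background. At an unadjusted p under 0.05 stood 2 of the 10, Nr4a2 and Egr3, against 23.8% of all tested genes. The log2 fold change was above 0 for 4 genes and below 0 for 6, with a median of -0.08 beside 0.01 over all genes tested. The 95% intervals of all 10 lay within a 2-fold difference in either direction, from -0.60 at the lowest to 0.56 at the highest.

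**Figure D1:**
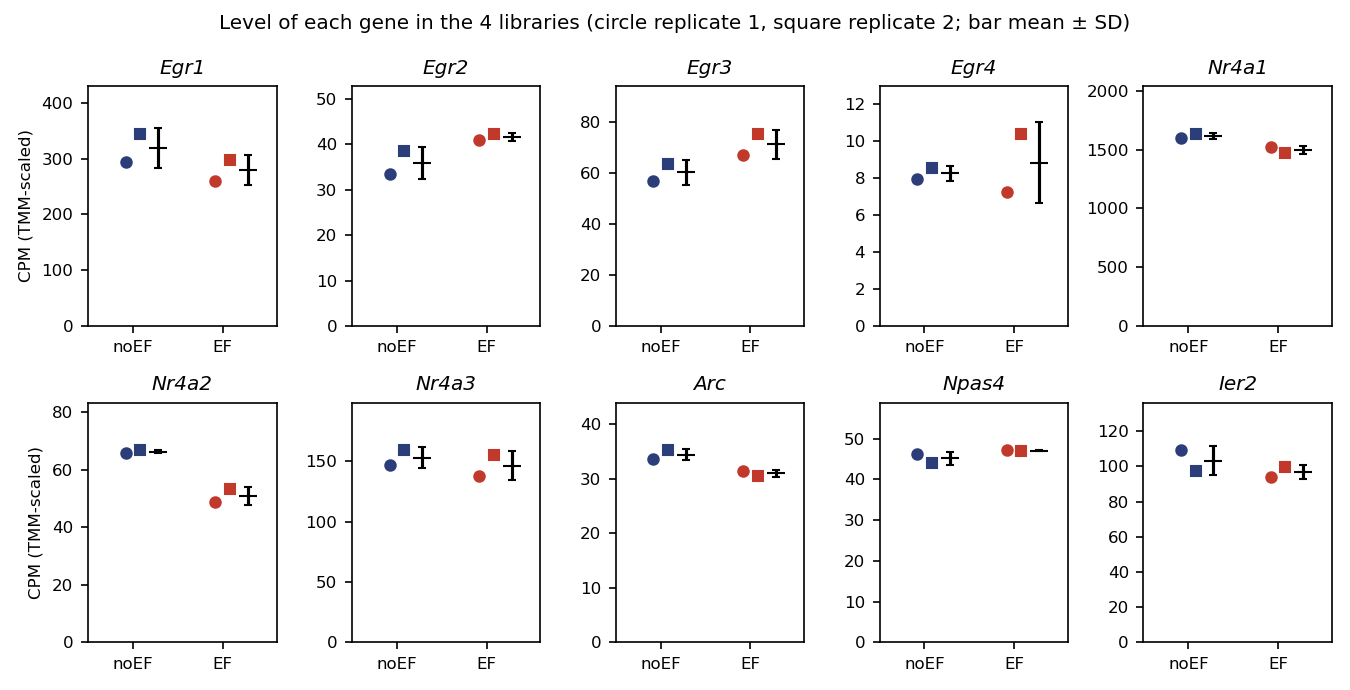
Level of each of the 10 genes in the 4 libraries in CPM, on linear axes from 0, with circles for replicate 1, squares for replicate 2 and bars for the mean and SD (n = 2). The EF points of Nr4a2, at 48.6 and 53.1 CPM, lie below the noEF points at 65.8 and 66.6 CPM, while the points of Egr1, Egr4, Nr4a3 and Ier2 overlap between the groups.

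The groups did not overlap for 6 of the 10 genes, 3 with EF higher (Egr2, Egr3 and Npas4) and 3 with EF lower (Nr4a1, Nr4a2 and Arc). With 2 libraries a group this is common, since 54.4% of all tested genes did not overlap, 27.6% with EF higher and 26.8% with EF lower. The largest log2 ratio between replicates was 0.51 in EF, for Egr4, and 0.23 in noEF, for Egr1.

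Nr4a2, also called Nurr1, is the nuclear receptor known for specifying midbrain dopamine neurons (ENSMUSG00000026826, GRCm38 chromosome 2, 57106830 to 57124003, minus strand). Its level was 48.6 CPM in EF 1 and 53.1 CPM in EF 2, against 65.8 CPM in noEF 1 and 66.6 CPM in noEF 2. Both EF libraries lay below both noEF libraries, and the gap between the groups was larger than the distance between replicates in either. The EF mean of 50.9 ± 3.18 CPM was 1.3-fold below the noEF mean of 66.2 ± 0.539 CPM (SD over 2 libraries each), with a log2 fold change of -0.38 (SE 0.10, 95% interval -0.60 to -0.16, edgeR adjusted p = 0.0314). The difference kept its direction in every alternative tried, between -0.44 and -0.29, but the call was lost in 5 of the 13. These include the fits in which library totals replaced TMM (edgeR adjusted p = 0.0782) and those without EF 1 (0.284), without EF 2 (0.0567) or without noEF 1 (0.0514), and the adjusted p of the 13 ran from 0.0075 to 0.284. In bulk RNA fewer cells with the transcript and less transcript per cell cannot be told apart.

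**Figure D2:**
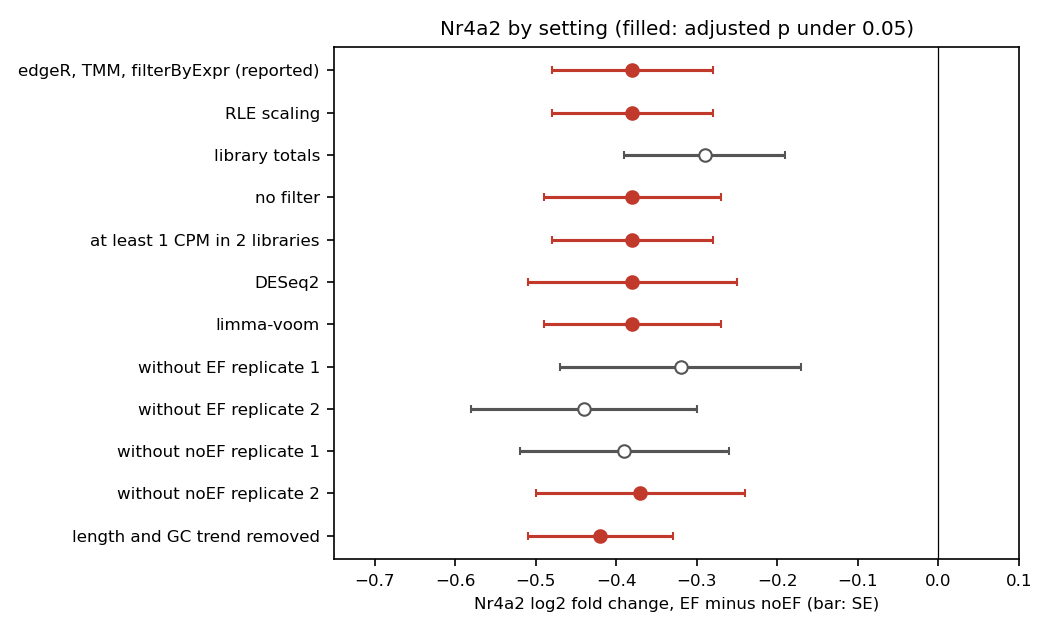
Log2 fold change of Nr4a2, EF minus noEF, as reported and under 11 alternative settings, with bars for the SE and filled points where the adjusted p is under 0.05. Every point lies below 0, between -0.44 and -0.29, and 7 of the 11 alternatives keep the call.

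The other Nr4a genes were not called. Nr4a1, also called Nur77 (ENSMUSG00000023034, chromosome 15, 101254269 to 101274795), had 1518 and 1469 CPM in EF and 1598 and 1633 CPM in noEF. The EF libraries were the lower ones without overlap, yet the log2 fold change was -0.11 (SE 0.08, 95% interval -0.28 to 0.05, edgeR adjusted p = 0.405). Nr4a3, also called Nor1 (ENSMUSG00000028341, chromosome 4, 48045153 to 48086447), had 138 and 155 CPM in EF and 147 and 159 CPM in noEF. Its groups overlapped, and the interval of its log2 fold change ran from -0.26 to 0.13 (edgeR adjusted p = 0.74). With library totals, and without EF 1, its value was 0.02 in place of -0.06.

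Genes of midbrain dopamine neurons, the setting in which Nr4a2 is best known, mostly had too few counts to be tested. Of 14 such genes 6 had enough counts to be tested, and Th, the rate-limiting enzyme of dopamine synthesis, had 0 counts in all 4 libraries, as did Lmx1b. Of the 6, 1 was called higher and 0 lower (16.7% called, beside 8.82% over all tested genes), and their median log2 fold change was -0.05. Without the filter on low counts 12 had a value, with a median of 0.61 and the same count of calls, so the median depends on the genes with few counts. The gene called was Aldh1a1, an aldehyde dehydrogenase that makes retinoic acid, with 16.6 and 15.0 CPM in EF against 8.3 and 7.58 CPM in noEF (log2 fold change 1.00, SE 0.18, edgeR adjusted p = 0.00337).

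Of the Egr genes 0 of 4 were called, and they did not all lie on the same side. Egr1 (ENSMUSG00000038418, chromosome 18, 34859823 to 34864984), the family member most widely used as a sign of recent activity, had 260.2 and 298 CPM in EF and 294 and 344 CPM in noEF. The higher EF library lay above the lower noEF library, and the log2 fold change was -0.19 (SE 0.10, 95% interval -0.40 to 0.02, edgeR adjusted p = 0.252). Egr3 (ENSMUSG00000033730, chromosome 14, 70077203 to 70082614), known for its part in muscle spindle formation and in neuronal plasticity, had 67.1 and 75.3 CPM in EF and 56.8 and 63.6 CPM in noEF. Both EF libraries were above both noEF libraries, with a log2 fold change of 0.24 (SE 0.11, 95% interval 0.02 to 0.47). Its unadjusted p was 0.0373 and its edgeR adjusted p 0.178, and it passed in none of the 13 alternatives, where the adjusted p ran from 0.0565 to 0.58.

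Egr2, also called Krox20 (ENSMUSG00000037868, chromosome 10, 67535475 to 67542188), sets hindbrain segments and the myelin programme of Schwann cells. It had 41.0 and 42.3 CPM in EF and 33.5 and 38.5 CPM in noEF, again with EF above noEF and a log2 fold change of 0.21 (SE 0.12, 95% interval -0.05 to 0.47, edgeR adjusted p = 0.328). Egr4 (ENSMUSG00000071341, chromosome 6, 85511121 to 85513589) was the least abundant of the 10, at 7.28 and 10.4 CPM in EF and 7.96 and 8.56 CPM in noEF. Both noEF values fell between the EF values, and the interval of its log2 fold change was the widest, from -0.37 to 0.56 (edgeR adjusted p = 0.846). Without EF 2 its value was -0.18 in place of 0.10. Of 9 Schwann cell and peripheral myelin genes, the programme Egr2 is known for, 6 were tested and 0 were called in edgeR. At an unadjusted p under 0.05 stood 2 of the 6, against 23.8% of all tested genes. The median log2 fold change of this list was 0.31. The most abundant was Pmp22, a myelin membrane protein also made by other cells, at 81.7 and 85.0 CPM in EF and 70.1 and 68.5 CPM in noEF (log2 fold change 0.27, SE 0.09, edgeR adjusted p = 0.0912). It passed in 3 of the 13 alternatives. Mbp, myelin basic protein, had 18.2 and 13.5 CPM in EF and 14.4 and 13.2 CPM in noEF (log2 fold change 0.20, edgeR adjusted p = 0.557).

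Arc, Npas4 and Ier2 were not called. Arc (ENSMUSG00000022602, chromosome 15, 74669083 to 74672570) had 31.5 and 30.5 CPM in EF and 33.7 and 35.2 CPM in noEF. The EF values were lower without overlap, by a log2 fold change of -0.15 (SE 0.12, 95% interval -0.42 to 0.11, edgeR adjusted p = 0.507). Npas4 (ENSMUSG00000045903, chromosome 19, 4984355 to 4990316) was the steadiest of the 10 across the libraries, with 47.1 and 47.0 CPM in EF and 46.3 and 44.1 CPM in noEF. Its EF values were above its noEF values by a narrow margin, and the log2 fold change of 0.06 had an interval from -0.18 to 0.29 (edgeR adjusted p = 0.816). Ier2 (ENSMUSG00000053560, chromosome 8, 84661331 to 84662852) had 94.2 and 99.7 CPM in EF and 109 and 97.4 CPM in noEF. The groups overlapped, with a log2 fold change of -0.09 (95% interval -0.29 to 0.11, edgeR adjusted p = 0.627), and with the trend of each library with gene length and GC content removed the value was 0.17 (edgeR adjusted p = 0.206; range over the alternatives 0.206 to 0.996). No exon of the 10 genes overlaps an exon of another gene in the table.

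**Figure D3:**
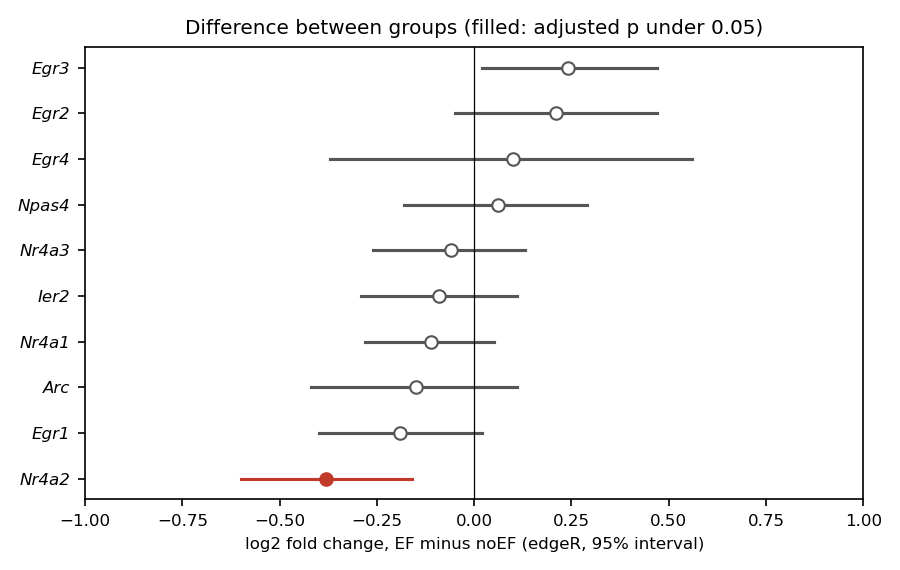
Log2 fold change of each of the 10 genes, EF minus noEF, with its 95% interval from edgeR, ordered by value, with a filled point where the adjusted p is under 0.05. The Nr4a2 interval, -0.60 to -0.16, lies below 0 and the Egr3 interval, 0.02 to 0.47, above it, and Nr4a2 is the one filled point.

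Levels can be compared between genes once they are divided by exon length, here as CPM per kb of the merged exons of each gene, which depends on the annotated isoforms. On this scale Nr4a1 was far above the others, at 419 to 465 CPM per kb over the 4 libraries, which ranked it 70 of 13438 tested genes with a length, in the top 0.521%. Egr1, at 58.0 to 76.8, and Ier2, at 61.9 to 71.4 CPM per kb, came next and their ranges overlapped. Nr4a3 followed at 23.0 to 26.5 CPM per kb, apart from its neighbours on both sides. Egr3, Nr4a2, Egr2, Npas4 and Arc formed a run from 17.1 down to 9.87 CPM per kb in which each range overlapped the next. Egr4 was lowest, at 3.39 to 4.83 CPM per kb, and ranked 7171, so that 9 of the 10 were in the upper 30.8% of tested genes. In this culture the transcripts of Npas4 and Arc, which are known mainly from neurons, were therefore present in all 4 libraries at levels in the upper part of the ranking.

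**Figure D4:**
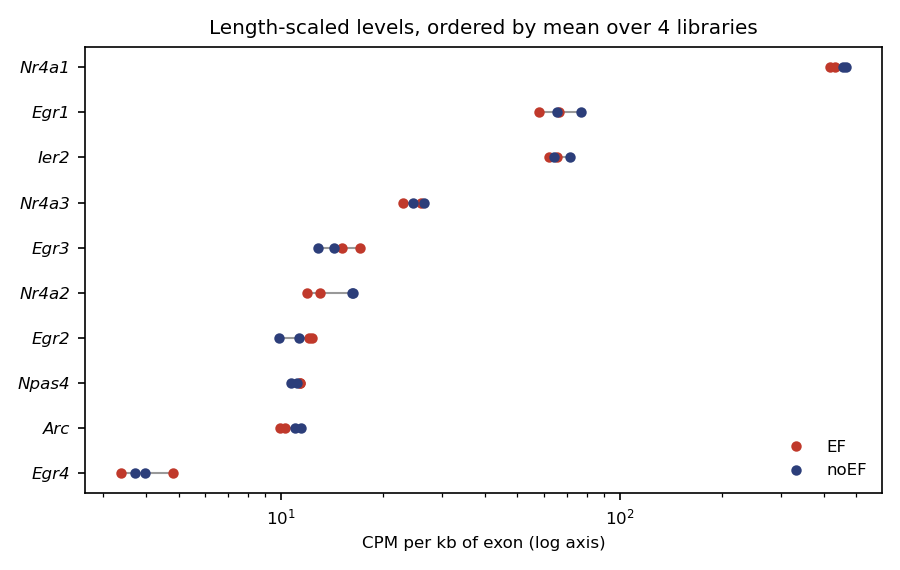
Length-scaled level of each of the 10 genes in CPM per kb of exon on a log axis, with 1 point per library coloured by group and a line over the range. Nr4a1 stands apart at 419 to 465, Egr1 and Ier2 overlap, and the run from Egr3 to Arc overlaps from gene to gene.

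Within a family the shares of the members can be compared inside each library, where library scaling cancels. Nr4a1 made up 91.5% to 92.5% of the summed length-scaled level of the Nr4a genes in the 4 libraries. Nr4a2 made up 2.56% and 2.86% of it in EF and 3.27% and 3.23% in noEF. Nr4a3 made up 4.93% and 5.66% in EF and 4.95% and 5.22% in noEF, with overlapping groups. The Nr4a2 to Nr4a3 log2 ratio was -0.94 and -0.98 in EF and -0.60 and -0.69 in noEF, a difference of -0.32, and the Nr4a1 to Nr4a2 ratio differed by 0.27.

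In the Egr family Egr1 held 65.4% and 65.9% of the summed length-scaled Egr level in EF, against 71.2% and 72.1% in noEF. Egr3 held 17.2% and 17.0% in EF against 14% and 13.5% in noEF, and Egr2 13.6% and 12.3% against 10.7% and 10.6%. The log2 ratio of Egr1 to Egr3 was 1.93 and 1.96 in EF and 2.34 and 2.41 in noEF, a difference of -0.43 that exceeded the distance between replicates in either group. For Egr1 to Egr2 the ratios were 2.26 and 2.42 in EF and 2.73 and 2.76 in noEF, a difference of -0.41. The ratio of Egr2 to Egr3 overlapped between the groups. Of the 9 pairs within the families 5 did not overlap, which is common with 2 libraries a group, where 54.4% of single tested genes did not overlap either. An exact two-sided permutation test of 2 against 2 libraries cannot go below p = 0.333, which these 5 pairs reached, so the ratios are given as a description. The pairs were compared after the levels had been seen.

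Related genes were counted in the same fit, where 8.82% of all tested genes were called and the median log2 fold change was 0.01. Of the 7 AP-1 genes, the Fos and Jun factors of the same early response, 2 were called lower and 0 higher, with a median log2 fold change of -0.23. After removal of the trends with length and GC content the median was -0.03 and Jun was called higher, as it also was with library totals (median -0.15), and without noEF 1 the median was -0.10. Fosl2 had 118 and 111 CPM in EF and 151 and 162 CPM in noEF (log2 fold change -0.45, edgeR adjusted p = 0.00515). Junb was at -0.38 (edgeR adjusted p = 0.0163) and lost its call in 3 of the 13 alternatives, among them those without EF 1 (0.113) and without noEF 1 (0.126). With the length and GC trend removed it was at -0.23 and still called (range of the adjusted p over the alternatives 4.41e-04 to 0.126). Its exons overlap Prdx2 on the opposite strand. Fos had 929 and 966 CPM in EF and 1089 and 1137 CPM in noEF, lower without overlap, with a log2 fold change of -0.23 (edgeR adjusted p = 0.0798). It passed in 2 of the 13 alternatives.

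Among 34 other primary response genes 1 was called higher, 4 were called lower and 29 were not called, and the median log2 fold change was -0.08. Cebpb, a leucine zipper factor of the inflammatory response, had 44.2 and 53.8 CPM in EF and 83.2 and 69.0 CPM in noEF (log2 fold change -0.64, SE 0.12, edgeR adjusted p = 0.00651). Its exons overlap Tmem189 on the opposite strand. The other lower genes were Gadd45b, a stress sensor tied to DNA demethylation (-0.36, edgeR adjusted p = 0.0232), Ier3 (-0.37, edgeR adjusted p = 0.0354) and Klf2, a zinc finger factor named here after its value was seen. Klf2 had 5.77 and 6.99 CPM in EF and 13.5 and 8.86 CPM in noEF (log2 fold change -0.81, SE 0.23, edgeR adjusted p = 0.0435). It kept its call in 7 of the 13 alternatives, and without noEF 1 it was at -0.47 (edgeR adjusted p = 0.41; range 0.00119 to 0.41). Gadd45b and Ier3 each kept the call in 7 of the 13 alternatives. With the length and GC trend removed Gadd45b was at -0.11 and Ier3 at -0.05, both without a call (edgeR adjusted p = 0.472 and 0.776, in ranges of 0.00266 to 0.54 and 0.00204 to 0.81). Both also lost it with library totals, Gadd45b without EF 1, without EF 2 or without noEF 1, and Ier3 without EF 1 or without noEF 1. Ctgf, a matrix-associated growth factor, was higher, at 8.07 and 6.05 CPM in EF and 2.55 and 4.04 CPM in noEF (log2 fold change 1.10, SE 0.30, edgeR adjusted p = 0.0316), a call lost without EF 1 (0.23) or without noEF 1 (0.152), in a range of 0.00184 to 0.23.

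Among genes that carry or restrain the inducing signal the shares called, given with each list, can be set beside the 8.82% over all tested genes, and of 13 partners, corepressors and turnover factors of the 10 genes 0 were called in edgeR. Of 17 upstream transcription factors and coactivators 2 were called higher and 0 lower (11.8% called, median log2 fold change 0.10). Srf, the factor that binds CArG boxes, had 67.0 and 59.8 CPM in EF and 41.4 and 47.9 CPM in noEF (log2 fold change 0.51, SE 0.11, edgeR adjusted p = 0.013), and without EF 1 it was not called (edgeR adjusted p = 0.132; range over the alternatives 2.22e-04 to 0.132). Mef2a, a calcium-responsive factor, had 82.9 and 83.0 CPM in EF and 56.4 and 69.4 CPM in noEF (log2 fold change 0.40, edgeR adjusted p = 0.034) and was called in 8 of the 13 alternatives, not without EF 1, EF 2 or noEF 1, nor with the length and GC trend removed (0.0762; range 6.17e-04 to 0.237). Of 16 upstream kinase and calcineurin genes 1 was called lower and 0 higher (6.25% called, median 0.05), namely Rps6ka1, an ERK-activated kinase that acts on SRF and CREB, at 39.1 and 36.9 CPM in EF and 60.9 and 50.6 CPM in noEF (log2 fold change -0.55, edgeR adjusted p = 0.0114). Without EF 2 or noEF 1 it was not called (edgeR adjusted p = 0.0517 and 0.0588; range 1.08e-04 to 0.0588).

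Of 14 ERK feedback genes, which read out and damp growth factor signalling, 13 were tested, 2 were called higher and 0 lower (15.4% called), with a median of 0.11. The ERK phosphatase gene Dusp6 had 30.6 and 36.2 CPM in EF and 23.3 and 21.1 CPM in noEF (log2 fold change 0.59, SE 0.14, edgeR adjusted p = 0.0173), and Spry1, an inhibitor of receptor tyrosine kinase signalling, was at 0.34 (edgeR adjusted p = 0.0314). Dusp6 lost its call in 1 of the 13 alternatives, without EF 2, and Spry1 in 3 of the 13, among them those without EF 2 or without noEF 2. Among the partners, Nab2, the corepressor that Egr proteins induce and bind, had 139.7 and 137 CPM in EF and 132 and 133 CPM in noEF (log2 fold change 0.06, 95% interval -0.12 to 0.24, edgeR adjusted p = 0.711). Its exons overlap Nemp1 and Stat6 on the opposite strand. Arnt2, the dimer partner of Npas4, had 250.1 and 239 CPM in EF and 245 and 260.4 CPM in noEF (log2 fold change -0.05, edgeR adjusted p = 0.788; 0.04 with library totals). At an unadjusted p under 0.05 stood 3 of these 13 genes, against 23.8% of all tested genes.

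The late genes of the activity response encode secreted and synaptic proteins. Of 19 such genes 14 were tested, 3 were called higher and 0 lower, with a median log2 fold change of 0.07. The share called was 21.4%, beside 8.82% over all tested genes. Those called were Nptx2 and Nptx1, pentraxins that gather AMPA receptors at synapses, and Scg2, a granin of dense-core vesicles. Nptx2 had 17.8 and 14.2 CPM in EF and 5.99 and 5.62 CPM in noEF, Nptx1 had 321 and 333 against 229 and 234 CPM, and Scg2 had 16.0 and 12.7 against 6.24 and 6.39 CPM. Their log2 fold changes were 1.46, 0.50 and 1.18 (edgeR adjusted p = 3.54e-04, 0.00163 and 0.00197), with EF above noEF in both libraries of each, and all 3 were called in each of the 13 alternatives. The list was written with these results known.

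**Figure D5:**
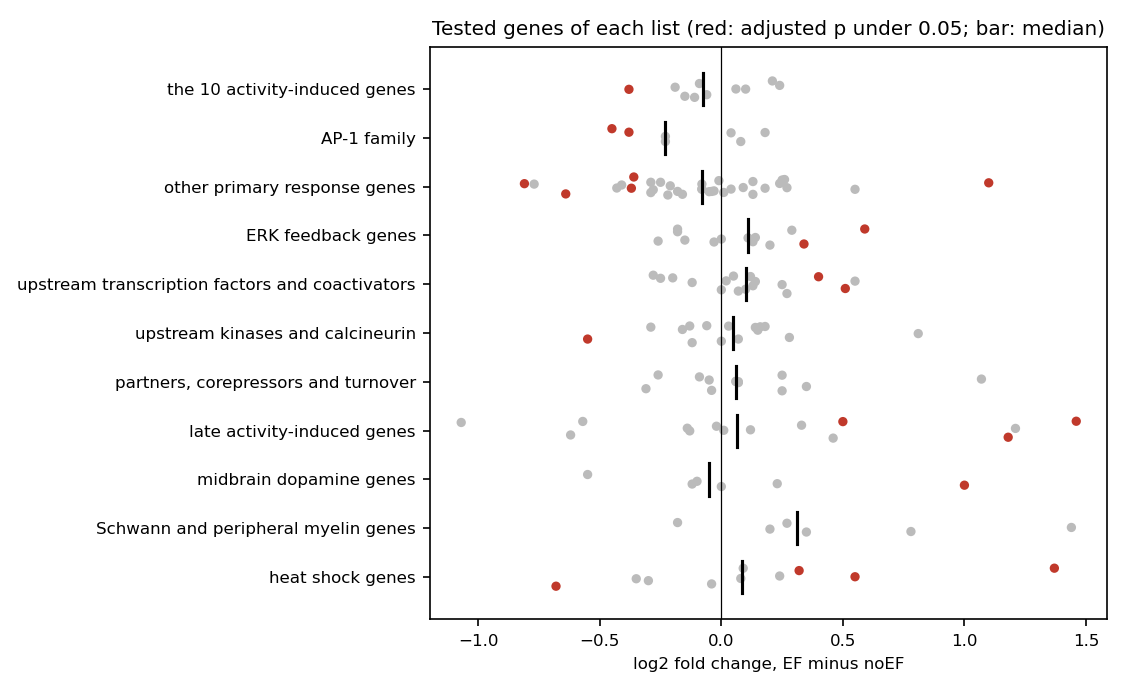
Log2 fold change, EF minus noEF, of every tested gene of the 10 and of the 10 lists set beside them, with red points where the adjusted p is under 0.05 and a bar at the median of each list. The 10 genes lie between -0.38 and 0.24, and the late activity-induced genes run from -1.07 at Tac1, not called, to 1.46 at Nptx2.

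Markers of cell types differed in part between the groups, where 8.82% of all tested genes were called. Of 7 neuron markers 6 were tested, and 2 stood at an unadjusted p under 0.05, against 23.8% of all tested genes. Among the neuron markers 0 were called, and Stmn2 was at 0. Their summed level was 544 to 569 CPM in EF and 462 to 533 CPM in noEF, of which Map2 alone made up 497 to 529 CPM and 411 to 481 CPM, while the log2 fold change of 4 of the 6 was below 0, with a median of -0.18. The summed level of 5 neural progenitor markers was lower in EF (4912 to 5216 CPM against 6282 to 6675 CPM, 1 of 5 called lower, namely Fabp7). Vim and Fabp7 made up most of this sum. The log2 fold change was below 0 for 3 of the 5 and above 0 for Nes (0.14) and Pax6 (0.12). The sum of 6 astrocyte markers was also lower in EF (3837 to 4127 CPM against 4229 to 4445 CPM, 3 of 6 called lower, namely Gfap, Gja1 and Aqp4). Slc1a3, most of that sum, was higher in EF without overlap and not called (2992 and 2733 CPM against 2484 and 2638 CPM, log2 fold change 0.16). Aldh1l1 was at 0.03 and S100b at -0.02. For 6 oligodendrocyte lineage markers the sums were 446 to 495 CPM in EF and 463 to 465 CPM in noEF, with Pdgfra called lower. The log2 fold change was above 0 for 3 of the 6 and below 0 for 3. Olig2, most of the sum, was at 0.09 and not called. Of 5 microglia and macrophage markers 4 were at 0 in all libraries, and the sum reached 0.0892 CPM at most. For 5 endothelial markers the sum was 1.4 to 2.27 CPM in EF and 0.743 to 1.23 CPM in noEF, with Cdh5 at 0. For 6 fibroblast and mural markers it was 5.36 to 9.33 CPM and 3.42 to 3.87 CPM, with Lum at 0. Acta2, most of the latter sum, was called higher, at 8.68 and 4.84 CPM in EF and 3.13 and 2.88 CPM in noEF. Of the 3 tested, 2 had a log2 fold change above 0. The other, Pdgfrb, had 0 and 0 CPM in EF against 0.307 and 0.387 CPM in noEF and was not called. Markers other than those at 0 are named after their values were seen. The part of these differences in the lower level of Nr4a2 was not tested.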

How the data were processed

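The authors deposited unscaled whole-number counts for 23874 genes in 4 libraries, judged from the values. HISAT2 2.0.4, StringTie 2.2.1, DESeq2 1.44.0 and GRCm38 are named, without roles, per the submitters' processing notes; how reads were counted, and whether by strand, is not given in the sources used here. Libraries totalled 33748880 to 34554537 counts. A count of 1 was rarer (57 to 76 genes) than a count of 2 (239 to 294), so mates may have been counted singly.

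Columns were matched to samples by library name. Genes passing filterByExpr (minimum count 10, total 15) were TMM-scaled and tested with edgeR 4.0.16 (R 4.3.3; quasi-likelihood F test, robust), with Benjamini-Hochberg adjustment over 14263 genes. The fit was tested on simulated data. The SE is the log2 fold change over the square root of F, and 95% intervals use the t distribution of the fit. Positions and exon lengths are from GENCODE M21 (GRCm38), exon overlaps from bedtools 2.31.1. Alternatives were DESeq2 1.42.0, limma-voom (limma 3.58.1), RLE scaling or library totals, other filters, a replicate block, leaving out each library, and removal of length and GC trends (splines with 4 degrees of freedom). The biological coefficient of variation was 0.161. In a chi-square test replicates differed by 18.7 (EF) and 19.8 (noEF) times the degrees of freedom, so none was a copy.

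The 10 genes and the 17 other lists were chosen with earlier results of these data known. Of each other list the called genes (up to 4 by smallest p), or otherwise the 2 most abundant, are named, and Fos; marker lists are given by counts and sums, and Klf2 and the markers named were added after their values were seen. Of 201 symbols 4 were matched by an older name. No list was tested as a set.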

Additional observations from a re-analysis of the deposited data

How the results depend on the processing

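When library totals replaced TMM, 1138 genes were called higher, and higher genes made up 69.3% of the calls in place of 43.4%. Without the filter 915 were called higher and 1203 lower, against 546 and 712. Leaving out 1 library gave 217 to 790 genes higher and 337 to 1065 lower, fewest without EF 1. Of the 10 genes 0 were called higher in any alternative. The number called lower was 1 throughout except 0 with library totals, 0 with the replicate block, and 0 to 1 when 1 library was left out, where a lone library is assumed to vary like the others. Under the replicate block Nr4a2 had an edgeR adjusted p of 0.0614, and 410 genes were called higher and 568 lower. Libraries with the same replicate number in their titles did not deviate together (correlation -0.0898), so the numbers are not taken as pairs. With 2 libraries a group this correlation is the same for both numbers by construction. Calls were also lost under the replicate block for Ier3 (0.0634), Spry1 (0.0654), Hspa1a (0.0626) and Hsp90aa1 (0.0785), and with the block and the length and GC trend removed together for Junb (0.103), Hsp90aa1 (0.0701), Gadd45b (0.54), Ier3 (0.81), Klf2 (0.137) and Mef2a (0.105). The direction changed for Nr4a3 (0.02) and Arnt2 (0.04) with library totals, and for Ier2 with the length and GC trend removed, alone or with the replicate block (0.17 in both). Leaving out 1 library moved Egr4 between -0.18 and 0.33, Nr4a3 between -0.15 and 0.02 and Mbp between -0.03 and 0.40. It moved the difference in the ratio of Egr2 to Egr3 between -0.09 and 0.03, of Egr2 to Egr4 between -0.09 and 0.37, of Egr3 to Egr4 between -0.00 and 0.34 and of Nr4a1 to Nr4a3 between -0.16 and 0.06, a check added after the data were seen. The causes were not tested. Of 20 other named genes called outside the marker lists, 8 were called in all 13 alternatives. The calls of the markers were not followed over the alternatives. Of the 10 genes Egr4 had the fewest counts, 259 to 362 per library, and the widest interval; how far depth sets that width was not tested.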

Other observations

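Heat shock genes, which are induced by misfolded protein and are also sensitive to handling, were called in both directions. Of 10 genes 3 were called higher in EF, 1 was called lower and 6 were not called, with a median log2 fold change of 0.09. The share called was 40%, beside 8.82% over all tested genes. Hspa1b, an inducible Hsp70, had 38.5 and 30.5 CPM in EF and 16.3 and 10.5 CPM in noEF (log2 fold change 1.37, SE 0.22, edgeR adjusted p = 0.00582) and was called in all 13 alternatives. Hspa1a, a near-identical copy with which it can share reads, had 20.6 and 21.1 CPM in EF and 14 and 14.5 CPM in noEF (0.55, edgeR adjusted p = 0.0376), so the split between them is uncertain, and it was called in 7 of the 13. Hsp90aa1 was at 0.32 (edgeR adjusted p = 0.0337) and lost its call in 4 of the 13, among them those without EF 1 or without noEF 1. Bag3, a partner of Hsp70 in protein clearance, moved the other way, with 59.2 and 64.4 CPM in EF and 97.6 and 100.4 CPM in noEF (-0.68, SE 0.10, edgeR adjusted p = 5.15e-04), also in all 13 alternatives.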
